A study of Homo sapiens with 6 samples.

Results

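MALAT1, NEAT1, TUG1, NORAD, KCNQ1OT1, OIP5-AS1, CYTOR and MIR22HG are long noncoding RNAs that are often studied in cancer, and their levels were read from RNA-seq of 67R cells with and without knockdown of BCAT1. They were chosen by gene name, and all 8 were found among the 60664 genes of the deposited table. The 67R line was derived from NCI-H1975, a non-small cell lung cancer line from a lung adenocarcinoma, and had acquired resistance to ASK120067, an inhibitor of the EGFR kinase. Both groups were 67R cells transfected by lipofection, 3 libraries with a negative control siRNA (labelled NC, here siNC) and 3 with siRNA against BCAT1 (siBCAT1), the cytosolic transaminase of branched-chain amino acids. Resistance was raised by dose escalation, and the labels do not say whether the cells came from 1 clone, for how long they were transfected, or whether the 3 libraries of a group came from separate cultures, so p-values measure only the spread between these libraries, which may be technical. The values are in TPM, transcript abundance scaled by gene length and by library, from libraries made with a kit that captures polyadenylated RNA and keeps the strand.

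Long noncoding RNAs are transcribed like messenger RNAs but are not translated into a known protein, and they act as scaffolds, as decoys for proteins or microRNAs, or through the act of their own transcription. NEAT1 builds the paraspeckle, a nuclear body, and MALAT1 collects in nuclear speckles beside splicing factors. NORAD binds Pumilio proteins in the cytoplasm, KCNQ1OT1 silences an imprinted gene cluster in cis, and CYTOR and MIR22HG carry microRNAs within their loci.

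Sequences explain what several of these RNAs are known for, and those that bear on the results below are given here 5′ to 3′. The mature microRNAs come from RefSeq (GRCh38.p14), with the seed, bases 2 to 8, in capitals. MIR22HG is the host of miR-22 (hsa-miR-22-3p at chr17:1713914-1713935 and hsa-miR-22-5p at chr17:1713952-1713973, minus strand). A copy of hsa-miR-4435 lies in CYTOR (chr2:87629764-87629785, plus strand) and another in MIR4435-2HG (chr2:111321061-111321082, minus strand). OIP5-AS1, the human counterpart of the zebrafish and mouse RNA cyrano, carries a site for hsa-miR-7-5p (encoded for example at chr9:83969811-83969834, minus strand). None of the 4 microRNAs shares a seed with another.
hsa-miR-22-3p: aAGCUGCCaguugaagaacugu
hsa-miR-22-5p: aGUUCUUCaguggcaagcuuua
hsa-miR-4435: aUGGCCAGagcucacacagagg
hsa-miR-7-5p: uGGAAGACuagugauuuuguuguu

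The next pair are stretches of the RNAs themselves, read from GRCh38 with GENCODE 29, in which all 8 gene identifiers of the table were found. The OIP5-AS1 stretch (chr15:41300574-41300599, plus strand, exon 4 of 4 of the longest transcript) has the match to the miR-7-5p seed in capitals. The first 8 bases of miR-7-5p and the last 14 of its 24 bases can pair with it. The NORAD stretch (chr20:36049499-36049523, minus strand, in the only exon) holds a pair of Pumilio response elements, which are in capitals.
OIP5-AS1 site: aacaacaaaatcaccaatGTCTTCCa
NORAD stretch: tctgTGTATATAgTGTACATAaagg

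The letters TGTANATA, the Pumilio element, occurred 15 times in NORAD, 9 times in KCNQ1OT1, 6 times in NEAT1, 2 times in TUG1 and once in OIP5-AS1. They occurred 0 times in the longest transcripts of MALAT1, CYTOR and MIR22HG. Searches used the transcript strand of the longest transcript of each gene. Of the 3077 long noncoding genes of GENCODE 29 whose longest transcript has at least 2000 bases, 25.7% hold the element, and 99.9% have fewer copies per kilobase than the 2.81 of NORAD. Copies per kilobase were 0.268 in TUG1, 0.264 in NEAT1, 0.113 in OIP5-AS1 and 0.098 in KCNQ1OT1, whose transcript is the longest of these. The letters GTCTTCC, the match to the miR-7-5p seed, occurred 3 times in OIP5-AS1 (0.340 per kilobase) and 6 times in KCNQ1OT1 (0.066), and in 23.4% of the same long genes. Over all annotated transcripts, the match was in 2 of 10 of OIP5-AS1 and in 2 of 38 of CYTOR. By their letters these motifs cannot overlap each other.

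CYTOR shares identical stretches with MIR4435-2HG, on the other arm of chromosome 2. The windows from 250 bases before to 50 bases after their starts in RefSeq are shown because they are identical over much of their length. Both are from RefSeq (GRCh38.p14), CYTOR at chr2:87455177-87455476 on the plus strand and MIR4435-2HG at chr2:111495112-111495411 on the minus strand. The 241 bases in capitals are identical in both windows.
CYTOR promoter window: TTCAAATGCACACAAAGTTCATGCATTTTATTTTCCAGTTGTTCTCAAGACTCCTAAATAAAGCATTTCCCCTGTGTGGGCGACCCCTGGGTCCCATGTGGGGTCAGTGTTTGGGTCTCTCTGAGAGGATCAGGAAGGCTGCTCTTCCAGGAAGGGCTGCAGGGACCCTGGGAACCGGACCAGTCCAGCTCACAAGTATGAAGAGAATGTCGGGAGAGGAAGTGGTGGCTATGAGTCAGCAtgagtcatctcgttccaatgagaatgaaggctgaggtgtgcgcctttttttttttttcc
MIR4435-2HG promoter window: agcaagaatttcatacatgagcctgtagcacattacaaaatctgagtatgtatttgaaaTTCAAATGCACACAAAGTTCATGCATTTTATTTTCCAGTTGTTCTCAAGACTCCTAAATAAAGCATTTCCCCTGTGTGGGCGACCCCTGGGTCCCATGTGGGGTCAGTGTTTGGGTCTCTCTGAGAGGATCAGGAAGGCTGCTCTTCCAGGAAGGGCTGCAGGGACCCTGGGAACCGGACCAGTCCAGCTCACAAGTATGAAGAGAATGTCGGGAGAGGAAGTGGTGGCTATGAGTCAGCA

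Over all annotated transcripts, 16.0% of the 50-base windows of CYTOR occur letter for letter in MIR4435-2HG, and 21.6% of those of MIR4435-2HG occur in CYTOR. Reads from such windows cannot be told apart, and how the authors counted them is not given in the sources used here.

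BCAT1 was read at 42.7, 42.18 and 29.76 TPM in the siNC libraries and at 8.78, 7.10 and 8.0 TPM in the siBCAT1 libraries. Every siBCAT1 library lay below every siNC library, and the log2 fold change was −2.12 (SE 0.15, limma adjusted p = 0.000272). The libraries summed to 992512 to 995593 TPM, with 23152 to 25043 genes above 0, and TPM keeps no read depth, so no counting error can be given. Of all genes tested, 16.7% rose and 10.4% fell (limma adjusted p under 0.05). Of 8 epithelial markers, 6 fell and 0 rose (1 and 7 at an unadjusted p under 0.05, higher and lower). Those that fell included KRT19 (log2 fold change −1.41), CDH1 (−2.41), CLDN4 (−1.40) and KRT7 (−0.91). The summed level of all 8 was 2573 to 2973 TPM in siNC and 1666 to 1953 TPM in siBCAT1, and EGFR did not pass (−0.41, limma adjusted p = 0.0643). EPCAM was low and went the other way, at 0.91, 1.35 and 1.55 TPM in siNC and 2.42, 1.96 and 2.61 TPM in siBCAT1, with groups that did not overlap and a log2 fold change of 0.56 that did not pass (limma adjusted p = 0.0732). Of 10 markers of other cell types, 3 were high enough to test, of which the macrophage and lysosome gene CD68 rose (0.71) and the collagen gene COL1A1 fell (−0.68). The 10 summed to 42.6 to 70.3 TPM, CD3E was at 0 in every library, and PTPRC, PECAM1 and VWF were at or near 0. In bulk RNA, fewer cells of a type and less RNA per cell cannot be told apart.

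The libraries numbered 3 differed from the others in RNAs without a poly(A) tail. Over all tested genes their correlations within a group were slightly below that of the other pair. They were 0.9637 and 0.9636 against 0.9663 in siNC, and 0.9663 and 0.967 against 0.9714 in siBCAT1. MALAT1, TUG1, NORAD and KCNQ1OT1, 4 of the 8, were lowest in replicate 3 of both groups, as were 23.1% of all tested genes. In the same libraries the summed level of 6 RNAs without a poly(A) tail (RN7SK, RN7SL1, RN7SL2, RPPH1, TERC and SCARNA10) was higher, 1920 TPM with siNC and 1769 TPM with siBCAT1. It was 1087 and 1088 TPM in the other two siNC libraries and 882 and 996 TPM in the other two of siBCAT1. The part of this difference in the values of the 8 RNAs was not tested. The difference was mostly in RN7SL1 and RN7SL2, and in siBCAT1 TERC and SCARNA10 were not highest in replicate 3. TERC was the only one of the 6 past the threshold (−2.37, limma adjusted p = 0.00395), and 0 rose, beside 10.4% lower and 16.7% higher of all genes tested. At an unadjusted p under 0.05 the counts were 0 higher and 1 lower. TERC was low, at 10, 4.02 and 6.68 TPM in siNC and 1.12, 0.45 and 0 TPM in siBCAT1, so its fold change depends on the 1 TPM added before taking logs. Messenger RNAs encoded by the mitochondrial genome made up 8.55 to 9.65% of TPM. Of these 13, 5 fell and 0 rose (6 and 0 at an unadjusted p under 0.05), beside 10.4% and 16.7% of all genes tested. Those that fell included MT-ND4 (−0.23), MT-ND1 (−0.21), MT-ND5 (−0.21) and MT-ND2 (−0.19).

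**Figure D1:**
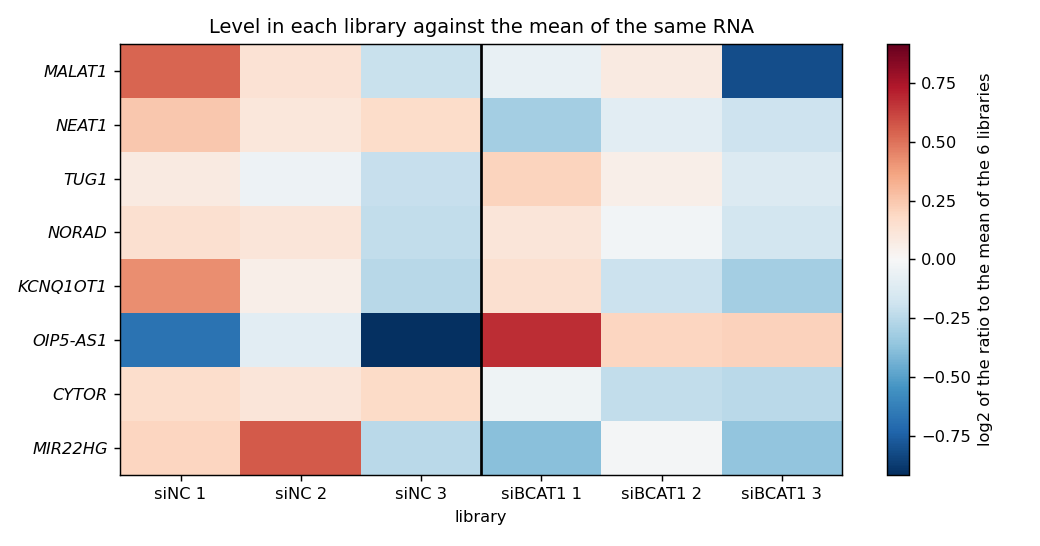
Level of each of the 8 RNAs in each library as the log2 ratio to its own mean over the 6 libraries (red above, blue below), with siNC left and siBCAT1 right of the line. OIP5-AS1 is blue in siNC and red in siBCAT1, NEAT1 the reverse, and MALAT1 is lowest in siBCAT1 replicate 3.

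The 8 RNAs differed widely in level per length. Their order depends on the gene lengths behind TPM, on capture of RNAs without a poly(A) tail, and for CYTOR on shared reads. The part of these in the order was not tested. MALAT1 led in every library, at 5.09 to 11.2 times the next of the 8, and made up 59.9 to 75.7% of their summed TPM, which was 835 to 1681 TPM. In siNC the order by mean level was MALAT1, CYTOR, TUG1, NEAT1, NORAD, MIR22HG, OIP5-AS1 and KCNQ1OT1. The only neighbours in that order whose libraries overlapped were CYTOR (108.95 to 113.83 TPM) and TUG1 (92.79 to 113.67 TPM). In siBCAT1 the order was MALAT1, TUG1, CYTOR, NEAT1, NORAD, OIP5-AS1, MIR22HG and KCNQ1OT1. There the libraries of NEAT1 and NORAD overlapped, as did those of OIP5-AS1 and MIR22HG. Within the libraries, the ratio of OIP5-AS1 to MIR22HG was 0.438, 0.507 and 0.504 in siNC and 1.67, 0.930 and 1.19 in siBCAT1. This ratio was not among the planned results, and the change of MIR22HG alone did not pass (limma adjusted p = 0.173).

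**Figure D2:**
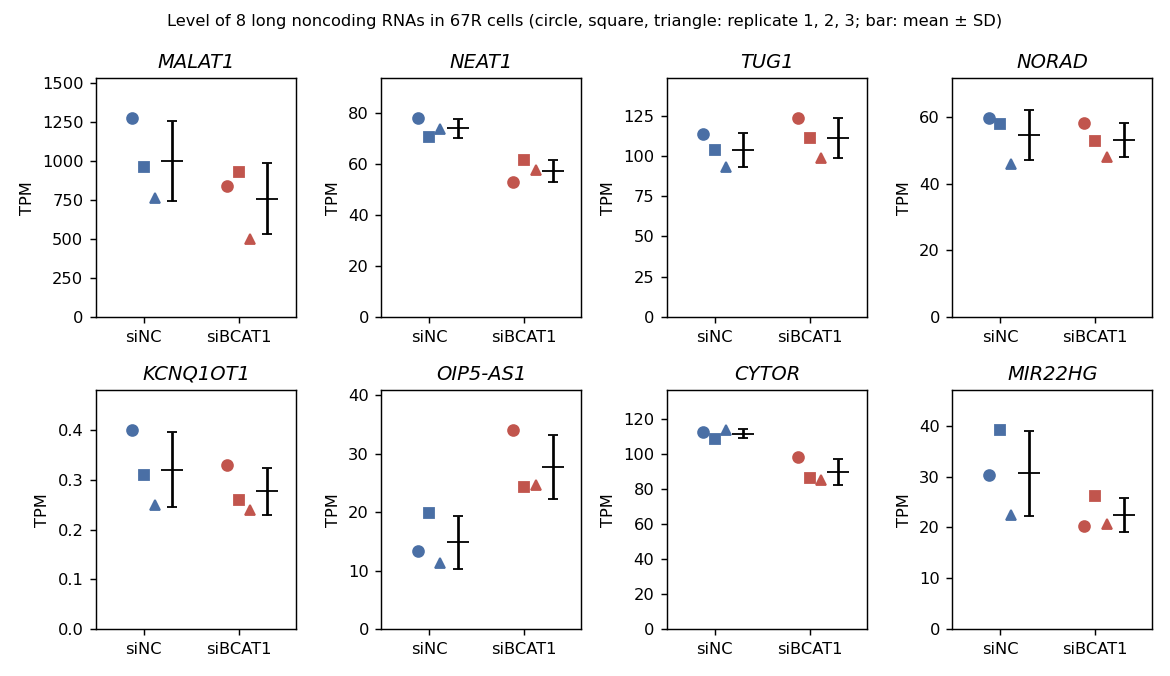
TPM (linear axes from 0) of each of the 8 RNAs in the 3 siNC and 3 siBCAT1 libraries, with the mean and SD of each group beside the points. The siBCAT1 points of NEAT1 and CYTOR lie below all siNC points, those of OIP5-AS1 lie above them, and the groups of the other 5 RNAs overlap.

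After knockdown, OIP5-AS1 rose, NEAT1 and CYTOR fell, and MALAT1, TUG1, NORAD and MIR22HG did not pass the test (limma on log2(TPM + 1), Benjamini-Hochberg adjustment over 14286 genes, threshold 0.05). KCNQ1OT1 was below the mean of 1 TPM required for testing. Thus 3 of the 7 tested RNAs were past the threshold, where 27.1% of all genes tested were. In direction, 1 was higher and 2 were lower, against 16.7% and 10.4% of all genes tested. The groups did not overlap in 3 of the 8, and in 44.1% of the genes tested. All siBCAT1 libraries were above siNC in 1 RNA and in 26.1% of the genes tested, and below it in 2 RNAs and in 18% of the genes. The median log2 fold change of the 7 was −0.31, and that of all genes tested was 0.04. Without both libraries numbered 3, 0 of the 7 passed the test (limma; 4 had an unadjusted p under 0.05 and 777 genes in all were past the threshold), and the log2 fold changes were −0.37 for NEAT1 (adjusted p = 0.119), −0.26 for CYTOR (0.144) and 0.79 for OIP5-AS1 (0.148). With 3 libraries a group, an exact permutation test of a single RNA cannot give a two-sided p below 0.1.

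**Figure D3:**
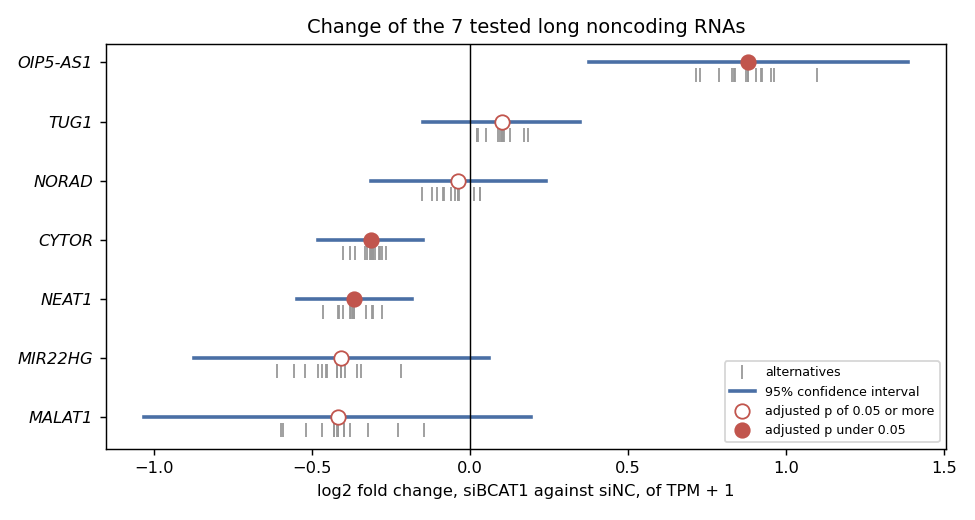
Log2 fold change of TPM + 1, siBCAT1 against siNC, of the 7 tested RNAs (circles, filled where the adjusted p was under 0.05) with 95% confidence intervals (lines). Grey ticks give the value under each of 17 other settings, which change the processing or leave out libraries. The intervals of OIP5-AS1, CYTOR and NEAT1 do not reach 0, and those of the other 4 do.

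NEAT1 (ENSG00000245532) lies at chr11:65422774-65445540 on the plus strand of GRCh38, and its longest transcript is a single exon of 22743 bases. It was read at 77.85, 70.48 and 73.55 TPM in siNC and at 52.75, 61.38 and 57.51 TPM in siBCAT1. All siBCAT1 libraries were below all siNC libraries. The mean went from 73.96 ± 3.70 to 57.2 ± 4.32 TPM (SD, n = 3), a ratio of 0.774. The log2 fold change was −0.37 (SE 0.077, 95% interval −0.55 to −0.18, limma adjusted p = 0.0135). The call was lost without siNC replicate 1 (−0.33, adjusted p = 0.0539) and after a correction for gene length (−0.28, adjusted p = 0.0831). A gene-level value does not separate the short polyadenylated NEAT1 transcript from the long one, which ends in a triple helix in place of a poly(A) tail and which the paraspeckle needs. Of the genes beside it, FRMD8, which lies 9272 bases away, had a log2 fold change of −0.33 (adjusted p = 0.0768), and LINC02736 was below 1 TPM.

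MALAT1 (ENSG00000251562) lies 52147 bases from NEAT1, at chr11:65497688-65506516 on the plus strand, with a longest transcript of 8708 bases in 1 exon. The siNC libraries held 1272.98, 960.00 and 763.81 TPM and the siBCAT1 libraries 838.58, 930.39 and 500.44 TPM. The groups overlapped, siNC replicate 1 was the highest library and siBCAT1 replicate 3 the lowest. The mean was 998.93 ± 257 TPM in siNC and 756.47 ± 226 TPM in siBCAT1 (SD, n = 3), and the log2 fold change of −0.42 (SE 0.26, 95% interval −1.03 to 0.19) did not pass the test (limma adjusted p = 0.278). It was −0.15 without siBCAT1 replicate 3 and −0.23 without siNC replicate 1 (adjusted p = 0.658 and 0.621). The ratio of MALAT1 to NEAT1 was between 8.70 and 16.4 in the 6 libraries. MALAT1, like the long NEAT1 transcript, is cut by RNase P and ends without a poly(A) tail, and how well a kit for polyadenylated RNA captured it was not tested.

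The genes of proteins that work with these nuclear RNAs are read here beside the 27.1% of all tested genes that passed the test. By direction, 16.7% of all tested genes were higher and 10.4% lower. Of 19 paraspeckle proteins, 5 rose and 0 fell (6 and 1 at an unadjusted p under 0.05), with a median log2 fold change of 0.03. The largest of these rises were in TAF15 (1.15, limma adjusted p = 0.000478), which encodes an RNA-binding protein, HNRNPH3 (0.63), of the hnRNP family, SMARCA4 (0.47), the ATPase of a chromatin remodeller, and CPSF7 (0.35), a polyadenylation factor. Of 16 nuclear speckle proteins, 2 rose, RNPS1 (0.73) and SRSF4 (0.44), both splicing regulators, and 0 fell (2 and 0 at an unadjusted p under 0.05), with a median of 0.01. Of 12 proteins that process the ends of MALAT1 and NEAT1 or bind the MALAT1 triple helix, 4 rose and 0 fell (6 and 0 at an unadjusted p under 0.05), with a median of 0.27 beside the 0.04 of all genes. These 4 were POP1 (0.57), RPP25 (0.29) and POP7 (0.27), subunits of RNase P, and METTL16 (0.54), an RNA methyltransferase that binds the triple helix.

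CYTOR (ENSG00000222041) lies at chr2:87454781-87636740 on the plus strand, has 38 annotated transcripts and is known as a cytoplasmic RNA linked to proliferation and the cytoskeleton. CYTOR was read at 112.79, 108.95 and 113.83 TPM in siNC and at 98.33, 86.33 and 85.23 TPM in siBCAT1. The siBCAT1 libraries were all below the siNC libraries, which differed among themselves by a coefficient of variation of only 2.30%, the lowest of the 8 RNAs in that group. The mean went from 111.86 ± 2.57 to 89.96 ± 7.27 TPM (SD, n = 3), a ratio of 0.804. The log2 fold change was −0.31 (SE 0.071, 95% interval −0.48 to −0.15, limma adjusted p = 0.0172). The call was lost without siNC replicate 1 (−0.31, adjusted p = 0.0610), siNC replicate 3 (−0.30, 0.0595), siBCAT1 replicate 2 (−0.29, 0.0633) or siBCAT1 replicate 3 (−0.28, 0.0591).

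MIR4435-2HG, the relative whose RefSeq start is shown above, was read at 149.05, 136.95 and 153.21 TPM in siNC and at 127.84, 114.58 and 119.68 TPM in siBCAT1. Its groups did not overlap, and its log2 fold change was −0.28 (limma adjusted p = 0.0237). Since part of the sequence is common to both genes, the values of CYTOR and MIR4435-2HG are uncertain. They cannot be taken as independent of each other, because how shared reads were counted is not given. The genes that flank CYTOR in RefSeq, DBF4P3 and PAFAH1B1P1, are pseudogenes, the first at 0 in every library and the second at 0.0233 TPM on average in siNC and 0 in siBCAT1.

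OIP5-AS1 (ENSG00000247556), a cytoplasmic RNA known to bind miR-7 and the RNA-binding protein HuR, lies at chr15:41283990-41309737 on the plus strand. Its level was 13.31, 19.85 and 11.26 TPM in siNC and 34.04, 24.39 and 24.66 TPM in siBCAT1. All siBCAT1 libraries were above all siNC libraries, and the gap between the groups was 24.39 against 19.85 TPM. The mean went from 14.81 ± 4.49 to 27.70 ± 5.50 TPM (SD, n = 3), a ratio of 1.87. The log2 fold change was 0.88 (SE 0.21, 95% interval 0.38 to 1.38, limma adjusted p = 0.0228), the only rise past the threshold among the 7. The direction held with each library left out, and the call held only without siNC replicate 2 (1.10, adjusted p = 0.00884). It was lost without siNC replicate 1 (0.83, 0.0974), siNC replicate 3 (0.72, 0.0811), siBCAT1 replicate 1 (0.73, 0.0865), siBCAT1 replicate 2 (0.96, 0.0590) or siBCAT1 replicate 3 (0.95, 0.0596).

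The gene OIP5, which encodes a centromere protein, runs on the opposite strand and overlaps OIP5-AS1 by 470 bases. OIP5 was read at 28.78, 37.09 and 30.82 TPM in siNC and at 29.18, 32.53 and 29.26 TPM in siBCAT1, with overlapping groups and a log2 fold change of −0.08 (limma adjusted p = 0.626). The kit keeps the strand, but whether counting used it is not given in the sources used here. The flanking genes CHP1 (809 bases away, −0.12, adjusted p = 0.174) and NUSAP1, which encodes a spindle protein (19542 bases away, 0.21, adjusted p = 0.0949) did not pass the test. ELAVL1, which encodes HuR, averaged 90.7 TPM in siNC against 96.9 TPM after knockdown (0.09, adjusted p = 0.353).

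MIR22HG (ENSG00000186594), the host transcript of miR-22, lies at chr17:1711493-1717174 on the minus strand, and the gene is known to respond to stress. In these libraries it was at 30.38, 39.13 and 22.34 TPM with siNC and at 20.34, 26.23 and 20.67 TPM in siBCAT1. The siNC libraries spread over nearly the whole range, and siNC replicate 3 lay among the siBCAT1 libraries. The log2 fold change was −0.41 (SE 0.20, 95% interval −0.87 to 0.06, limma adjusted p = 0.173). It was −0.22 without siNC replicate 2 (adjusted p = 0.392) and −0.61 without siNC replicate 3 (adjusted p = 0.0566). The host transcript is a precursor, and the level of the mature miR-22 shown above was not measured in these libraries.

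TUG1 (ENSG00000253352), an RNA that has been tied to Polycomb proteins and starts at a bidirectional promoter, lies at chr22:30969245-30979395 on the plus strand. The level of TUG1 was 113.67, 103.87 and 92.79 TPM in siNC and 123.37, 111.30 and 98.39 TPM in siBCAT1. The groups overlapped, and in each group the library numbered 1 was the highest and the library numbered 3 the lowest. The log2 fold change was 0.10 (SE 0.11, 95% interval −0.15 to 0.35, limma adjusted p = 0.522).

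NORAD (ENSG00000260032), which limits Pumilio activity and guards chromosome number, lies at chr20:36045622-36050960 on the minus strand. It was read at 59.76, 58.09 and 46.09 TPM in siNC and at 58.20, 53.01 and 48.01 TPM in siBCAT1. The groups overlapped almost wholly, and the log2 fold change was −0.04 (SE 0.12, 95% interval −0.31 to 0.24, limma adjusted p = 0.849). Of the 5 proteins known to bind NORAD or OIP5-AS1, 0 passed the test in either direction (limma, 2 higher and 0 lower at an unadjusted p under 0.05), with a median of 0.09. Of all genes tested, 16.7% were higher and 10.4% lower. PUM2, which encodes a Pumilio protein, averaged 24.1 TPM in siNC against 21.6 TPM after knockdown (−0.14, adjusted p = 0.278). The most abundant of the 5, RBMX (0.27, adjusted p = 0.0695) and KHDRBS1 (0.17, adjusted p = 0.0707), did not pass either. In both, all siBCAT1 libraries were above all siNC libraries, as in 26.1% of the genes tested.

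KCNQ1OT1 (ENSG00000269821) is an unspliced RNA of 91667 bases at chr11:2608328-2699994 on the minus strand, wholly within KCNQ1, which is transcribed from the other strand. Its level was 0.40, 0.31 and 0.25 TPM in siNC and 0.33, 0.26 and 0.24 TPM in siBCAT1. The groups overlapped, and all 6 values were low on this per-length scale. The difference of the means was −0.0433 TPM (two-sided exact permutation p = 0.6). Without the filter, over 31860 genes, limma gave a log2 fold change of −0.05 (SE 0.075, adjusted p = 0.754), a scale on which 1 is added to values well under 1. KCNQ1 itself averaged 0.317 TPM in siNC against 0.307 TPM after knockdown, and intronic reads of KCNQ1 and reads of KCNQ1OT1 are separated only by strand.

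Of 7 genes of the imprinted domain that KCNQ1OT1 is known to silence or that lie beside it, 5 were tested. Of these 5, 1 fell and 0 rose (2 and 0 at an unadjusted p under 0.05), beside 10.4% and 16.7% of all genes tested. The median of the 5 was −0.13. The gene that fell was CDKN1C, an inhibitor of cyclin-dependent kinases. CDKN1C was read at 31.41, 17.96 and 26.59 TPM in siNC and at 9.16, 8.03 and 9.86 TPM in siBCAT1. Its groups did not overlap, and its log2 fold change was −1.36 (SE 0.19, limma adjusted p = 0.00296). ASCL2 was at 0 in every library.

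Among 40 other long noncoding RNAs that are named in the cancer literature, 38 were found in the table and 24 were tested. Of these 24, 6 rose, 6 fell and 12 did not pass (6 and 6 at an unadjusted p under 0.05). Their median log2 fold change was −0.08. Of all genes tested, 16.7% rose and 10.4% fell. UCA1, an RNA first described in bladder cancer, rose (1.19, limma adjusted p = 0.0106), as did TP53TG1 (0.98, adjusted p = 0.0267), an RNA from a p53-responsive locus. MIR210HG, the host of the hypoxia-responsive miR-210, fell (−1.01, adjusted p = 0.0117), and so did SLC25A25-AS1 (−0.97, adjusted p = 0.0101). TP53TG1 was low in siNC (0.58, 1.64 and 1.26 TPM), as was SLC25A25-AS1 in siBCAT1 (0.9, 1.46 and 0.87 TPM). These values are near the 1 TPM added before taking logs.

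The genes whose profile over the 6 libraries was nearest to that of a changed RNA were found by the root mean square difference of centred log2(TPM + 1) values among the 8324 genes that averaged 10 TPM or more. For NEAT1 they were HPCAL1 (0.0343), PHKG2 (0.0391) and TRIM21 (0.0404). For CYTOR they were NFYC (0.0240), PTPRM (0.0280) and CNIH1 (0.0316). For OIP5-AS1 they were ZNF85 (0.114), a gene with no symbol in the table (ENSG00000286905, 0.124) and ZNF367 (0.152). The distances for OIP5-AS1 were the largest of the 3 sets, but the measure is not scaled and can grow with the size of a gene's own differences. The gene most like OIP5-AS1, ZNF85, was at 19.21, 22.64 and 15.83 TPM in siNC and at 40.13, 31.95 and 30.97 TPM in siBCAT1. ZNF85 was picked for its likeness over these same 6 libraries, so its profile is no separate evidence of a link.

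The seed of an siRNA can match other transcripts, so the letters complementary to the seeds of the siRNAs against BCAT1 that the study's methods name were counted in the transcripts. The letters TTGAGCA, for siBCAT1-2, which the methods also call siBCAT1, occurred once each in the longest transcripts of NEAT1, TUG1 and NORAD, 3 times in KCNQ1OT1 and 0 times in the other 4. Over all annotated transcripts, TTGAGCA was in 1 of 8 of NEAT1, 10 of 20 of TUG1 and in the only one of NORAD. The letters AGACAAT, for siBCAT1-1, occurred once in MALAT1 (0.115 per kilobase), 10 times in KCNQ1OT1 (0.109) and 0 times in the longest transcript of the other 6. Over all annotated transcripts, AGACAAT was in 2 of 17 of MALAT1, 14 of 38 of CYTOR and 12 of 25 of MIR4435-2HG. Among the long noncoding genes of at least 2000 bases, 21.1% hold TTGAGCA and 20.6% hold AGACAAT in their longest transcript. The libraries carry the name siBCAT1, which points to siBCAT1-2, and a match is not a site.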

How the data were processed

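The 6 RNA-seq libraries (3 siNC, 3 siBCAT1) were grouped and numbered by their titles and genotypes. Total RNA was extracted with TRIzol and sequenced from Illumina Stranded mRNA libraries. The authors deposited gene-level TPM with 2 decimals and a length for each gene, and that the unit is TPM was inferred from the values, which sum to nearly the same total in all libraries. The submitters' processing notes name fastp, HISAT2, StringTie and GRCh38, whose versions are not given in the sources used here, nor is the annotation. The deposited length equals that of the longest GENCODE 29 transcript for 7 of the 8 RNAs. The exception, NORAD, has 5401 bases in the table and 5339 in GENCODE.

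Differences of log2(TPM + 1) were tested by limma 3.58.1 (linear model, empirical Bayes with trend; R 4.3.3) over the 14286 of 60664 genes that averaged 1 TPM or more. Tests were two-sided, p-values were adjusted by Benjamini-Hochberg, and the threshold was 0.05. The code was tested on simulated data. Sequences were searched in Python 3.11.15. The named genes were the 8 RNAs, BCAT1, PUM2, ELAVL1, KCNQ1, OIP5, MIR4435-2HG, the 4 largest changes past the threshold in each list (if none, its 2 most abundant genes), and the neighbours and 3 nearest profiles of each changed RNA. Other genes of 5 or fewer in a count, EPCAM, EGFR, ASCL2 and the markers at 0 were named after their values were seen. A further gene of this rule is not reported here. The RNAs and lists were chosen with earlier results of these data known. Left out were 2 listed RNAs whose names were not in the table and RMRP, which had 2 rows. Other settings tried were the filter, the pseudocount, 3 scalings, corrections for length and GC content, limma without the trend, a replicate block, and leaving out libraries.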

Additional observations from a re-analysis of the deposited data

How the results depend on the processing

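The log2 fold changes of MALAT1, NEAT1, TUG1, OIP5-AS1, CYTOR and MIR22HG kept their direction under 17 alternatives each, and that of KCNQ1OT1 under 10. MALAT1 (−0.60 to −0.15) and TUG1 (0.02 to 0.18) stayed short of the threshold in all 17, NEAT1 kept its call in 13 (adjusted p 0.00712 to 0.119 over the 17), CYTOR in 12 (0.00658 to 0.144) and OIP5-AS1 in 10 (0.00884 to 0.148). With no filter on low values, OIP5-AS1 (0.88, adjusted p = 0.0763) was no longer called, so 0 of the 8 were higher (limma, 3 of the 8 at an unadjusted p under 0.05 in either direction), and 2567 of the now 31860 genes were called, 960 of them lower. With a pseudocount of 0.1 TPM, KCNQ1OT1 went to −0.15. A loess correction on gene length moved NEAT1 to −0.28, and one on GC content and length, chosen after seeing the data, to −0.31 (adjusted p = 0.0519), which left 1 of the 8 lower in either case. Without both libraries numbered 3, also chosen after seeing the data, the calls of NEAT1 (−0.37), OIP5-AS1 (0.79) and CYTOR (−0.26) were lost, 0 of the 8 were called, 0 higher and 0 lower (limma, 4 at an unadjusted p under 0.05), and 777 genes in all were, 497 higher and 280 lower, with 4 libraries left.

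With 1 library left out at a time, 0 to 3 of the 8 were called, 0 to 1 higher and 0 to 2 lower. The lowest count of 0 came without siNC replicate 1 (limma, 3 at an unadjusted p under 0.05). All genes called ranged from 2318 to 3706, higher from 1435 to 2276 and lower from 796 to 1430. NEAT1 ranged from −0.42 to −0.31, CYTOR from −0.38 to −0.28 and OIP5-AS1 from 0.72 to 1.10. NORAD turned to 0.031 without siNC replicate 1, 0.011 without siNC replicate 2 and 0.032 without siBCAT1 replicate 3, with a range of −0.15 to 0.032. Apart from the settings that remove libraries, the cause of these changes was not tested.

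Libraries of the same replicate number deviated together weakly (correlations of deviations 0.0844, 0.102 and 0.124), so the numbers were not taken to pair the samples. With a replicate block, MIR22HG was also called (−0.41, adjusted p = 0.0495), 4 of the 8 were past the threshold, and 4568 genes in all were. Median-ratio scaling moved the share of calls that were higher from 61.6% to 52.1%. Under every setting the median of all genes lay within 0.1 of 0.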

Other observations

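The summed level of 80 histone genes, most of whose messenger RNAs lack a poly(A) tail, was 262 to 314 TPM in siNC and 307 to 334 TPM in siBCAT1, and these ranges overlap. It was highest in replicate 3 of siNC (314 TPM) and lowest in replicate 3 of siBCAT1 (307 TPM). Without MALAT1, the other 7 long noncoding RNAs summed to 360 to 408 TPM in siNC and 335 to 387 TPM in siBCAT1, so the spread of the sum over all 8 came mostly from MALAT1. LINC01943, which overlaps CYTOR in RefSeq, averaged 3.87 TPM in siNC and 4.30 TPM in siBCAT1 (limma, log2 fold change −0.20, adjusted p = 0.905), so its means and its log2 value differ in sign.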
